A study of Homo sapiens with 9 samples.

Results

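The arms of human chromosome 7 held 1559 of the 20698 peaks in 6 lists from chromatin isolation by RNA purification (ChIRP-seq). Members were all peaks of chromosome 7 in hg19, leaving out those that start between 55 and 64.1 Mb, around the centromere, which removed 36 peaks. The remaining arms span 150.039 Mb of a chromosome of 159.139 Mb. Within them, the duplicated segment of 7q11.23 (72 to 77 Mb), 7q22 (97 to 107 Mb, whose first Mb still lies in 7q21.3) and the 3 Mb at each chromosome end were set against everything else on the arms, called the rest below.

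The cells were K562, an established human erythroleukemia line used as a model of erythroblasts, and were not described as carrying any treatment. In ChIRP, biotinylated DNA probes capture an RNA together with the chromatin crosslinked to it. One set of probes was directed against the lncRNA SRA, the steroid receptor RNA activator, and the other against LacZ, a bacterial sequence that human cells lack, as the negative control. There were 3 SRA, 3 LacZ and 3 input samples from the 1 cell line, and a list of peaks was analysed for each SRA and LacZ sample, while the inputs were not used here. The question was where on these arms SRA-associated chromatin lies and whether the control probes gave the same distribution.

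Chromosome 7 alternates between Giemsa-light bands, which are rich in genes and replicate early, and Giemsa-dark bands, which hold few genes. Band 7q11.23 is known for large low-copy repeats that flank the Williams-Beuren syndrome region with ELN (elastin), LIMK1 (a kinase of the actin cytoskeleton) and GTF2I (a transcription factor). Reads from such repeats can match several copies. Band 7q22 is gene-rich and holds EPO (erythropoietin), TFR2 (a transferrin receptor of the liver and erythroid cells), CUX1 (a homeobox transcription factor) and a cluster of membrane mucin genes. Chromosome ends are likewise rich in genes and in repeats. Peaks could not be assigned to single genes or given a DNA sequence, because no hg19 gene annotation or genome was used here.

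The peak lists did not behave alike. On the arms, 196 peaks were shared by SRA lists 1 and 2, 182 by lists 1 and 3 and 198 by lists 2 and 3, where sharing means an overlap of at least 1 bp. In each of these pairs start and end were identical, and 27, 23 and 26 of them also carried equal scores. LacZ lists 1 and 2 overlapped 4 times, never with identical start and end. The spread among the SRA lists is therefore not a replicate error. Main comparisons were tested with 3 lists against 3, which takes the SRA lists as separate, and also with them counted as 1 sample. Tests under other settings took them as separate. LacZ list 3 held 290 peaks in all, and its arm peaks had a median width of 1255 bp against 163.5 and 165 bp in LacZ lists 1 and 2. Read depth is unknown, so intervals cover counting error only. With 3 lists against 3, an exact permutation test cannot give a two-sided p below 0.1, and with the SRA lists as 1 sample it cannot go below 0.25.

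The arms carried more peaks than their length would give, in the SRA and in the LacZ lists. There were 366, 370 and 386 arm peaks in SRA lists 1, 2 and 3, which were 7.35, 7.48 and 7.44% of their peaks. LacZ lists 1, 2 and 3 had 208, 199 and 30 arm peaks, or 7.77, 7.60 and 10.3%. The arms make up 4.94% of the length of chromosomes 1 to 22 and X. Per Mb, the arms held 1.54, 1.57 and 1.56 times as many peaks as the other chromosomes in the SRA lists and 1.63, 1.59 and 2.22 times as many in the LacZ lists. The other chromosomes were counted over their full lengths, centromeres included, so these densities do not rest on like lengths. All LacZ shares were above all SRA shares, with means of 8.57% ± 1.54 (SD, n = 3) and 7.42%, and the exact permutation test gave p = 0.1, the smallest possible. With the SRA lists counted as 1 sample the exact permutation test gave p = 0.5. The difference of -1.15 percentage points was -0.27 without LacZ list 3. It was -0.11 with the lower-scoring peaks of each list, those under its median, left out (exact permutation test, p = 1.0), -0.80 with equal numbers of peaks taken from the lists (p = 0.7 by the same exact test) and -0.89 without chromosomes 9 and 22 (p = 0.4 by the same exact test), so the separation of the groups did not hold under these settings.

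An SRA-binding region was a peak found in at least 2 of the 3 SRA lists that no LacZ peak overlapped. The arms held 336 of the 4550 such regions in the whole series, or 7.38% (95% Wilson interval 6.66 to 8.18%). That is 2.24 regions per Mb, against 1.45 on the full length of the other chromosomes, a ratio of 1.54 (95% exact interval 1.38 to 1.72). LacZ peaks overlapped 9 SRA regions of the arms, of which 8 were in at least 2 SRA lists and were left out. The number of regions depended on the rule, with 111 when all 3 SRA lists had to hold the peak and 653 when any list was enough.

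**Figure D1:**
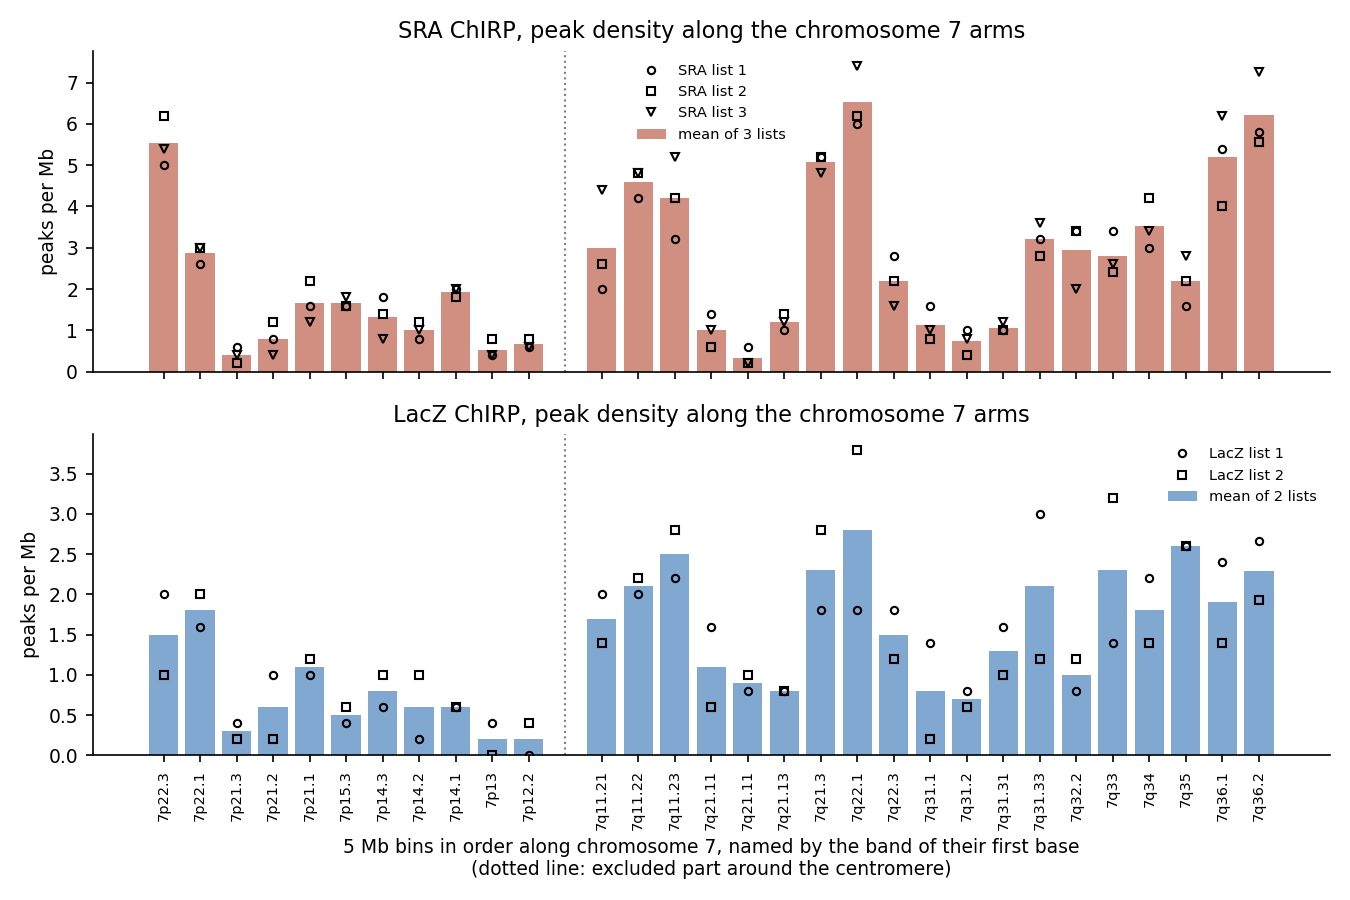
Peaks per Mb (vertical axis) in the 5 Mb bins of the chromosome 7 arms in their order along the chromosome (horizontal axis, each named by the band of its first base, the last bin being 4.14 Mb long), for the 3 SRA lists above and LacZ lists 1 and 2 below. Symbols are single lists and bars their mean, and LacZ list 3, with 30 arm peaks, is not drawn. Both panels have their highest bar at 100 to 105 Mb in 7q22, with 6.53 SRA and 2.8 LacZ peaks per Mb, whereas the first bin of the p arm is the third highest for SRA, with 5.53 peaks per Mb, and lies at 1.5 for LacZ.

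Along the arms, SRA peaks were concentrated in a few stretches. The 5 bins of 5 Mb with the most SRA-binding regions were 0 to 5 Mb with 31 regions, 100 to 105 Mb with 26, 95 to 100 Mb with 25, 150 to 155 Mb with 23 and 70 to 75 Mb with 20. The median of the 5 Mb bins of chromosomes 1 to 22 and X that held a peak in any list was 5 regions. Among 559 such bins, the first bin of chromosome 7 ranked 15th, and the others of these 5 ranked between 25th and 44th. At the low end, 10 to 15 Mb in 7p21.3 and 85 to 90 Mb in 7q21.11 held 1 region each. The lists of the SRA probes had 30, 31 and 37 peaks at 100 to 105 Mb but 3, 1 and 2 peaks at 10 to 15 Mb.

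A bin was called dense when its peak density was at least 2 times the mean density of the list. In every SRA list, 6 of the 30 arm bins were dense (20%), against 11.1% of all 559 bins. These were 0 to 5, 70 to 75, 95 to 100, 100 to 105 and 150 to 155 Mb and the last bin of the q arm. In both LacZ list 1 and LacZ list 2, 6 arm bins were dense as well (20%), again against 11.1% of all bins. Of these, 4 were dense in the SRA lists too, at 70 to 75, 95 to 100 and 100 to 105 Mb and in the last bin. LacZ peaks were in addition dense at 75 to 80 and 145 to 150 Mb. Across the 30 bins, mean SRA density and the density in LacZ lists 1 and 2 had a Pearson's r of 0.80 and a Spearman's rho of 0.80. LacZ lists 1 and 2 gave 0.55 and 0.68 against each other. These correlations are a description over neighbouring bins of 1 chromosome, which may be alike in gene density and base composition (not measured here), and carry no test.

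Few bins separated the SRA lists from the LacZ lists. The share of the list's peaks was above every LacZ list in every SRA list in 1 of 30 bins (3.33%), at 25 to 30 Mb from 7p15.3 to 7p14.3, against 14.0% of all 559 bins. The SRA lists had 8, 8 and 9 peaks there and LacZ lists 1, 2 and 3 had 2, 3 and 0. The share was below every LacZ list in 2 bins (6.67%), at 90 to 95 and 145 to 150 Mb, against 7.69% of all bins. At 145 to 150 Mb there were 8, 11 and 14 SRA peaks and 13, 13 and 1 LacZ peaks. The first of these counts was below the background on this grid but not with bins shifted by 2.5 Mb, where it was 16.1% of the arm bins and 15.8% of all bins. It became 13.3, 13.3 and 16.7% of the arm bins without LacZ list 1, 2 or 3, when the percentages over all bins were 27.6, 24.1 and 20.04%. Both counts depended on LacZ list 3, in which 1 of 290 peaks is a share of 0.345%. A bin that holds no peak of LacZ list 3 cannot be called below. Without that list, bins below made up 16.7% of the arm bins and 20.8% of all bins.

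**Figure D2:**
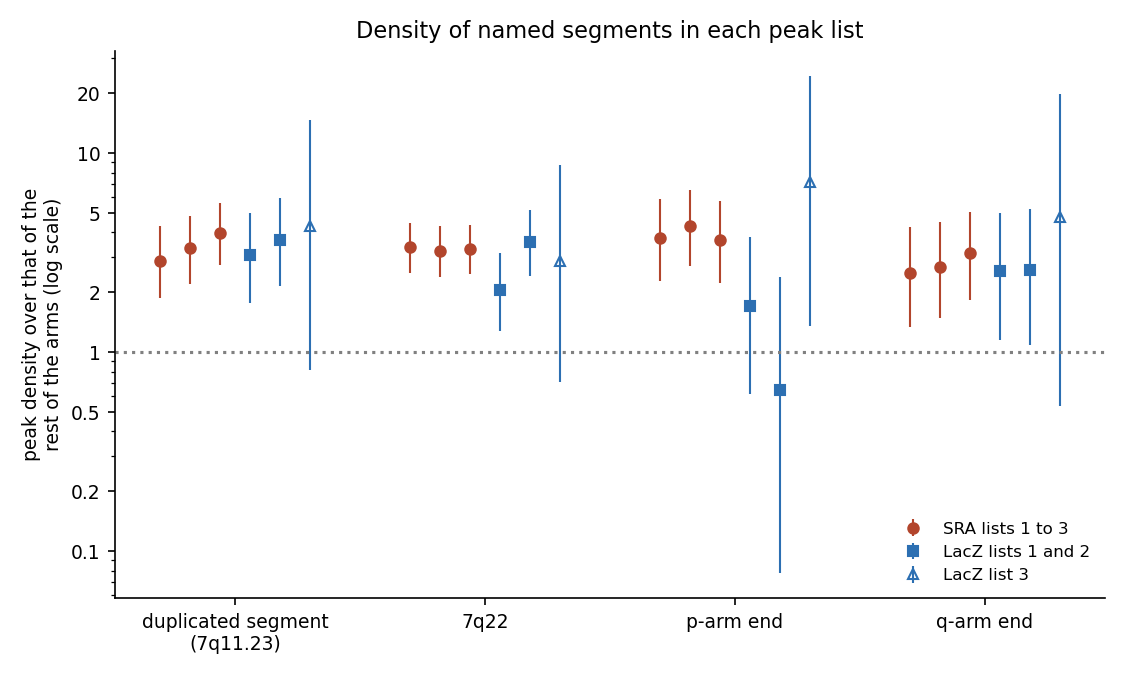
Peak density in each named segment divided by the density in the rest of the arms of the same list (vertical axis, log scale), for the 3 SRA lists (circles), LacZ lists 1 and 2 (squares) and LacZ list 3 (triangles). Bars are 95% exact intervals for counting error, and the dotted line marks equal density. The SRA values lie between 2.5 and 4.3 in all 4 segments, and the p-arm end is the segment in which LacZ lists 1 and 2, at 1.71 and 0.65, lie lowest.

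The rest of the arms, 129.039 Mb long, served as the base for the named segments. It held 241, 240 and 246 peaks in SRA lists 1, 2 and 3, or 1.87, 1.86 and 1.91 per Mb. In LacZ lists 1, 2 and 3 it held 151, 133 and 18 peaks, or 1.17, 1.03 and 0.14 per Mb. The 221 SRA-binding regions of the rest came to 1.71 per Mb.

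The duplicated segment of 7q11.23 was denser than the rest for both probe sets. SRA lists 1, 2 and 3 had 27, 31 and 38 peaks in it, a density 2.89, 3.33 and 3.99 times that of the rest. LacZ lists 1, 2 and 3 had 18, 19 and 3 peaks, at 3.08, 3.69 and 4.3 times the rest, so the groups overlapped. As a share of arm peaks the segment took 8.53% in the SRA lists and 9.40% ± 0.68 (SD, n = 3) in the LacZ lists, and the exact permutation test gave p = 0.4, or p = 0.5 with the SRA lists as 1 sample. The difference of -0.87 percentage points was -0.29 without SRA list 1, -1.52 without SRA list 3 and -0.57 without LacZ list 3. Its sign changed with the score filter and the edges of the segment, to 1.89 percentage points when the lower-scoring peaks of each list, those under its median, were left out.

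Within the duplicated segment the 27 SRA-binding regions were spread unevenly, although together they were 3.15 times as dense as the rest (95% exact interval 2.03 to 4.71). The Mb from 75 to 76 Mb held 9 regions, and the Mb from 73 to 74 Mb held 7. The Mb between them held 1 region, with 0, 2 and 3 peaks in the SRA lists and 1, 4 and 0 in the LacZ lists. Among regions in all 3 SRA lists, the highest mean scores were those of chr7:76003470-76003890 (mean score 65.2), chr7:73060796-73061059 (58.1) and chr7:73006022-73006175 (49.8). The score is the authors' peak score, read here as 10 times −log10 of the MACS p-value, with a lowest value of 40. A LacZ peak overlapped 2 further SRA regions of the segment, chr7:74491184-74491347 and chr7:76067321-76067452, both through LacZ list 2. How reads that match several copies of a repeat were placed is not given in the sources used here, and their part in these densities was not tested.

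The 10 Mb of 7q22 held the largest number of peaks of the named segments. It held 63, 60 and 63 peaks of SRA lists 1, 2 and 3, a density 3.37, 3.23 and 3.31 times that of the rest. LacZ lists 1, 2 and 3 had 24, 37 and 4 peaks, at 2.05, 3.59 and 2.87 times the rest, so that the LacZ lists fell on both sides of the SRA lists. The share of arm peaks was 16.6% in the SRA lists and 14.5% ± 3.67 (SD, n = 3) in the LacZ lists (exact permutation test, p = 0.4, or p = 1.0 with the SRA lists as 1 sample). With the same number of peaks taken from every list, the difference of 2.10 percentage points became -1.64, and it was 0.62 without LacZ list 1 and 4.15 without LacZ list 2.

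The 53 SRA-binding regions of 7q22 were 3.10 times as dense as those of the rest (95% exact interval 2.25 to 4.19) and were concentrated in 7q22.1. A single Mb, from 100 to 101 Mb, held 12 regions, the most of any Mb on the arms. There the SRA lists had 14, 13 and 17 peaks and the LacZ lists 1, 6 and 1. From 98 to 99 Mb there were 9 regions, but here LacZ list 2 had 9 peaks beside 12, 8 and 7 in the SRA lists. From 103 to 104 Mb there were 2 regions, and from 106 to 107 Mb there was 1. The highest mean scores among regions in all 3 SRA lists belonged to chr7:101132292-101132612 (67.5), chr7:102094800-102095045 (61.7) and chr7:98943355-98943523 (55.3). In 7q22.3, 3 regions lay within 10 kb of each other between 105042960 and 105048293, a span of 5334 bp, and this was the only such group of 3 on the arms.

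The p-arm end was the named segment in which the density relative to the rest differed most between the SRA lists and LacZ lists 1 and 2. SRA lists 1, 2 and 3 had 21, 24 and 21 peaks in these 3 Mb, which begin in 7p22.3, and LacZ lists 1, 2 and 3 had 6, 2 and 3. The density was 3.75, 4.3 and 3.67 times that of the rest in the SRA lists, against 1.71 and 0.65 times in LacZ lists 1 and 2 and 7.17 times in LacZ list 3. The last value rests on 3 peaks, and its 95% exact interval ran from 1.35 to 24.6. As a share of arm peaks the p-arm end took 5.74, 6.49 and 5.44% in the SRA lists and 2.88, 1.01 and 10% in the LacZ lists. The difference of 1.26 percentage points was within the spread of the LacZ lists (SD 4.75, n = 3; exact permutation test, p = 0.7, or p = 1.0 with the SRA lists as 1 sample). It was 3.94 without LacZ list 3 and -0.55 without LacZ list 2, so 1 list decided its direction. The end was set apart from the other end after these values had been seen.

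The p-arm end had 24 SRA-binding regions and the highest density of the named segments, 8.0 per Mb and 4.67 times the rest (95% exact interval 2.93 to 7.13). Of these, 11 lay from 1 to 2 Mb, where the SRA lists had 10, 9 and 10 peaks and the LacZ lists 2, 1 and 0. Among 41 chromosome ends of 3 Mb, without the p arms of the acrocentric chromosomes, the p-arm end of chromosome 7 shared the 3rd rank by SRA-binding regions, and the median end had 7. By the unfiltered peaks of LacZ lists 1 and 2 the same end had 8 and ranked 16th, with a median of 6. The ranks are not like for like, because 72.7% of distinct SRA peaks here were in at least 2 SRA lists, against 53.2% on the other chromosomes. Among regions in all 3 SRA lists the highest mean scores were at chr7:1210489-1210732 (64.1), chr7:918944-919170 (53.0) and chr7:1924901-1925117 (50.8).

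In the q-arm end the 2 probe sets were closer together. SRA lists 1, 2 and 3 had 14, 15 and 18 peaks there, at 2.5, 2.69 and 3.15 times the rest. LacZ lists 1, 2 and 3 had 9, 8 and 2 peaks, at 2.56, 2.59 and 4.78 times the rest. By shares of arm peaks the groups overlapped (exact permutation test, p = 0.6, or p = 0.75 with the SRA lists as 1 sample). Its 11 SRA-binding regions were 2.14 times as dense as the rest (95% exact interval 1.05 to 3.91) and ranked 17th of 41 ends. By the unfiltered peaks of LacZ lists 1 and 2, of which it had 17, the q-arm end ranked 4th. These ranks are not like for like, because 34.4% of its distinct SRA peaks were in at least 2 lists, against 53.2% on the other chromosomes. Of the 4 regions in all 3 SRA lists, those with the highest mean scores were chr7:158066548-158066718 (53.0), chr7:158178989-158179070 (51.2) and chr7:157755446-157755601 (49.4). Both ends together took 10.1% of arm peaks in the SRA lists and 9.63% ± 6.19 (SD, n = 3) in the LacZ lists (exact permutation test, p = 1.0, also with the SRA lists as 1 sample). The difference of 0.43 percentage points was -0.78, -1.87 and 3.95 without LacZ list 1, 2 or 3, so its direction depended on single LacZ lists.

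The q arm, here from 64.1 Mb, carried more peaks per Mb than the p arm in every list. SRA lists 1, 2 and 3 had 89, 102 and 85 p-arm peaks and 277, 268 and 301 q-arm peaks, so q-arm density was 1.80, 1.52 and 2.05 times that of the p arm. LacZ lists 1, 2 and 3 had 41, 41 and 6 p-arm peaks and 167, 158 and 24 q-arm peaks, a ratio of 2.36, 2.23 and 2.31. The 95% exact intervals of the ratio were 1.41 to 2.31, 1.21 to 1.93 and 1.61 to 2.64 in the SRA lists. In the LacZ lists they were 1.67 to 3.40, 1.57 to 3.23 and 0.92 to 6.92, so the intervals overlapped between the groups. The ratio was lower in all SRA lists than in all LacZ lists (means 1.79 and 2.30 ± 0.065, SD, n = 3; exact permutation test, p = 0.1, and p = 0.25 with the SRA lists as 1 sample, each the smallest possible). This comparison was also chosen after the values had been seen. The difference of -0.51 became -0.84 with the p-arm end left out and -0.31 with the peaks under the median score of a list left out, and the exact permutation test gave p = 0.3 in both cases, so the groups were no longer separate. Of the SRA-binding regions, 95 lay on the p arm and 241 on the q arm, and per Mb the q arm had 1.47 times as many (95% exact interval 1.15 to 1.88). Among 38 chromosome arms with at least 20 SRA-binding regions, 7q ranked 8th by their density and 5th by that of LacZ peaks. The p arm ranked 16th and 27th. These ranks are not like for like, since the LacZ peaks were not filtered for recurrence. Of distinct SRA peaks, 65.3% on the p arm and 48.2% on the q arm were in at least 2 SRA lists.

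**Figure D3:**
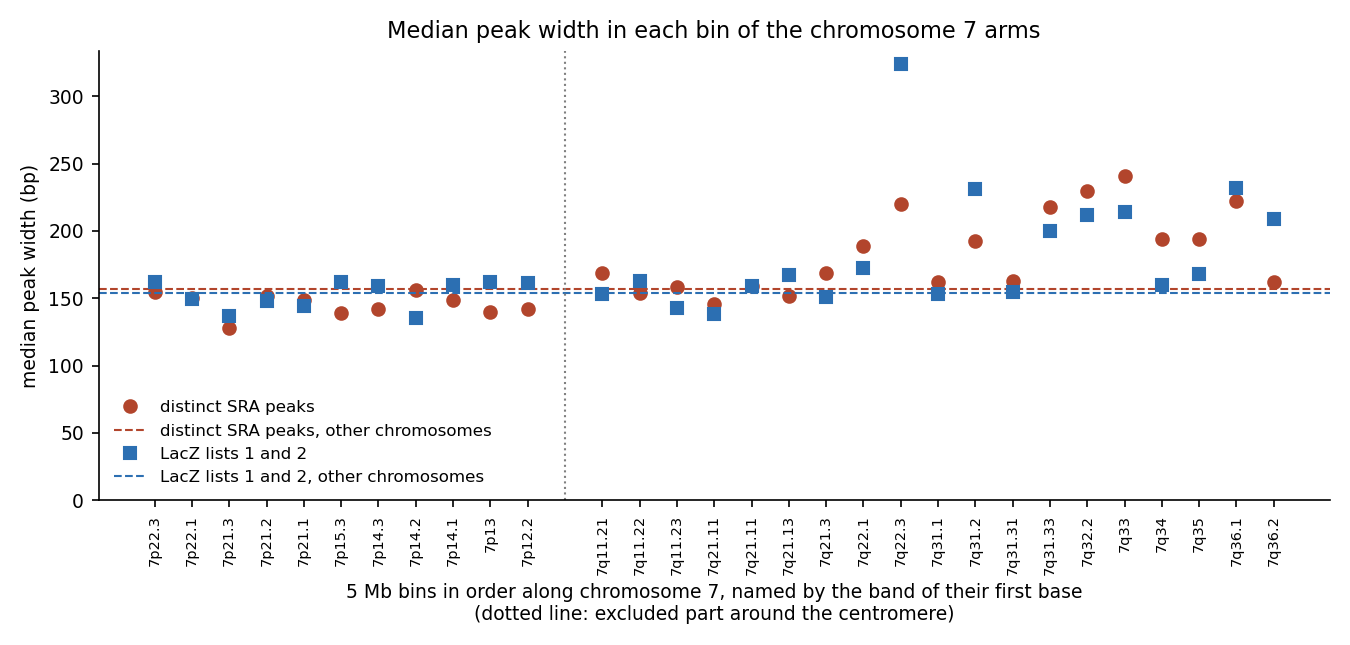
Median peak width in bp (vertical axis) in each 5 Mb bin of the arms in order along the chromosome (horizontal axis, named by the band of the first base), for distinct SRA peaks (circles) and the peaks of LacZ lists 1 and 2 (squares). Dashed lines are the medians on the other chromosomes, 157 and 154 bp. From the 7q22.1 bin onwards all 12 SRA bins and 11 of 12 LacZ bins lie above these lines, against 4 and 9 of the 18 bins before it.

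Peaks were wider on the outer part of the q arm than elsewhere on the chromosome, in SRA and LacZ lists alike. Arm peaks had median widths of 170, 169 and 168 bp in the SRA lists, against 156, 156 and 158 bp on the other chromosomes. The p arm did not share this, with medians of 152, 150.5 and 149 bp, while the q arm had 177, 177 and 180 bp. In LacZ lists 1 and 2 the p arm had 149 and 149 bp and the q arm 169 and 172 bp. Even the wide peaks of LacZ list 3 had medians of 920 bp on the p arm and 1386 bp on the q arm.

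The wider peaks began at about 100 Mb, a boundary that was placed after the bin medians had been seen and is therefore given without a test. On the q arm below 100 Mb the SRA lists had medians of 157, 156 and 161 bp and the LacZ lists 151, 150 and 982.5 bp. From 100 Mb to the end they had 200, 204 and 200 bp and 192, 209 and 1708 bp. In all 6 lists the median was thus higher beyond the boundary than before it. Of the 18 bins below it, 4 had a median width of distinct SRA peaks above that of the other chromosomes, and of the 12 bins beyond it, all 12 did, against 34.4% of the 540 bins with an SRA peak on chromosomes 1 to 22 and X. In LacZ lists 1 and 2 the contrast was weaker, with 9 of 18 bins below the boundary and 11 of 12 beyond it above the LacZ median of the other chromosomes, against 42.2% of 535 bins. The bin medians of distinct SRA peaks ran from 128 to 169 bp below the boundary and from 162 to 241 bp beyond it. Those of LacZ lists 1 and 2 ran from 135.5 to 167.5 bp and from 153.5 to 324 bp, and so overlapped more. Peak density on the q arm was 2.54, 2.70 and 3.01 per Mb below the boundary in the SRA lists and 3.15, 2.89 and 3.26 beyond it. In the LacZ lists it was 1.59, 1.70 and 0.22 per Mb below and 1.86, 1.64 and 0.27 beyond, while SRA-binding regions numbered 2.54 per Mb on both sides. By the median width of its SRA-binding regions, 180 bp, 7q ranked 2nd of 38 arms behind 22q with 666 bp, and 7p, with 151 bp, shared the 25th rank. By the widths in LacZ lists 1 and 2, 7q shared the 4th rank. Median scores in the SRA lists were 44.8, 43.6 and 44.9 on the p arm, 43.2, 43.5 and 44.0 on the q arm below 100 Mb and 44.3, 45.4 and 44.5 beyond it, so that they too were slightly higher beyond the boundary than just before it. In the LacZ lists they were 44, 43.1 and 42.9 below and 44, 43.6 and 48.3 beyond.

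**Figure D4:**
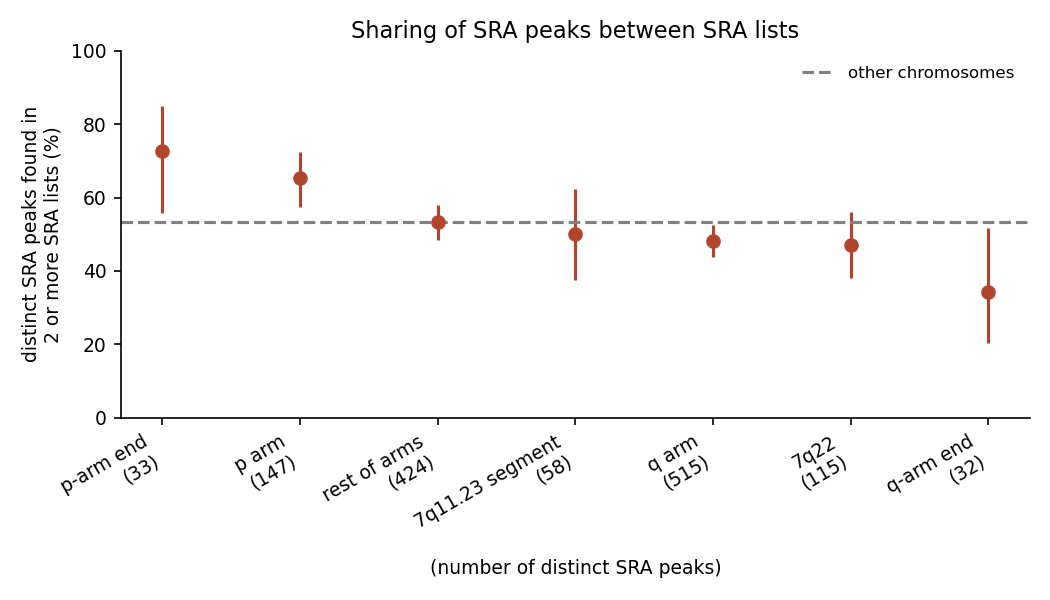
Percentage of distinct SRA peaks found in at least 2 of the 3 SRA lists (vertical axis) for the named segments, both arms and the rest (horizontal axis, with the number of distinct peaks), with 95% Wilson intervals. The dashed line is the value on the other chromosomes, 53.2%. The p-arm end has the highest value, 72.7%, and the q-arm end the lowest, 34.4%.

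How often a peak recurred between the SRA lists also differed along the chromosome. The SRA lists held 662 distinct peaks on the arms, of which 318 were in 1 list, 228 in 2 and 116 in all 3, so that 52.0% (95% Wilson interval 48.2 to 55.8%) were in at least 2. Without SRA list 1, 2 or 3, when a peak had to be in both remaining lists, it was 35.5, 31.9 and 36.3%. With all 3 SRA lists the share was 65.3% (57.3 to 72.5%) on the p arm and 48.2% (43.9 to 52.5%) on the q arm, with intervals for counting error only. It was 72.7% (55.8 to 84.9%) in the p-arm end but 34.4% (20.4 to 51.7%) in the q-arm end. In the duplicated segment it was 50%, in 7q22 47.0% and in the rest 53.3%, against 53.2% on the other chromosomes. On the q arm it was 54.0% (46.6 to 61.3%) below 100 Mb and 45.2% (40 to 50.5%) beyond. Because the lists share peaks with the same start and end, recurrence describes these lists and is not a measure of reproducibility.

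LacZ peaks seldom recurred, on the arms as elsewhere. The LacZ lists held 432 distinct regions on the arms, of which 5, or 1.16% (95% Wilson interval 0.50 to 2.68%), were in at least 2 lists. On the other chromosomes the share was 1.31% (1.03 to 1.66%). The strongest was chr7:116337131-116337401 in 7q31.2, with a score of 114.5 in LacZ list 1 and 53.4 in LacZ list 2 and no SRA peak. The others lay at chr7:29873836-29874036, chr7:64536222-64536397, chr7:131412348-131413460 and chr7:158376105-158376330, also without an SRA peak. The 9 SRA regions that a LacZ peak overlapped included chr7:102153090-102153310 in 7q22.1, where LacZ list 2 had a score of 65.2 and SRA lists 1 and 2 had 48.8 and 77.8.

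Peaks of both probe sets were denser in Giemsa-light bands, a feature that the choice of peaks did not use. Light bands made up 42.9% of the arms but held 66.7, 67.6 and 73.1% of the arm peaks of SRA lists 1, 2 and 3. In LacZ lists 1, 2 and 3 they held 64.9, 68.3 and 80%. The means were 69.1% and 71.1% ± 7.91 (SD, n = 3), and the groups overlapped (exact permutation test, p = 0.8, or p = 1.0 with the SRA lists as 1 sample). Without LacZ list 3 the difference of -1.99 percentage points became 2.47. Of the SRA-binding regions, 223 or 66.4% lay in light bands, a density 2.63 times that of the darker bands (95% exact interval 2.09 to 3.33).

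The 5 highest mean scores on the arms among regions in all 3 SRA lists belonged to chr7:155652529-155653085 in 7q36.3 (mean score 92.8), chr7:148028624-148028822 in 7q36.1 (78.2), chr7:139920783-139921162 in 7q34 (69.7), chr7:101132292-101132612 in 7q22.1 (67.5) and chr7:6594753-6594989 in 7p22.1 (66.2). The first had scores of 127.6, 85.6 and 65.3 in SRA lists 1, 2 and 3, and the second had 40.2, 86.7 and 107.8. The fifth had 66.15 in every SRA list. Of these 5, the region in 7q22.1 lay in a named segment and the other 4 in the rest, which held 72 of the 111 regions in all 3 SRA lists. The median of the mean scores was 46.2 in the duplicated segment, 45.2 in 7q22, 45 in the p-arm end, 48.4 in the q-arm end and 45.4 in the rest.

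Most SRA-binding regions stood alone. The median distance to the next region was 197400 bp, and it was 79800 bp in the p-arm end, 85260 bp in the duplicated segment, 110700 bp in 7q22, 265900 bp in the q-arm end and 282300 bp in the rest. The arm value depended on the number of lists and was 346000, 319000 and 358100 bp without SRA list 1, 2 or 3. Of 334 neighbouring pairs, 15 (4.49%) lay within 10 kb of each other. These were 14 of the 240 pairs on the q arm (5.83%) and 1 of the 94 on the p arm (1.06%). None of the 23 pairs in the p-arm end lay within 10 kb, and the smallest distance there was 14990 bp. So few pairs cannot be told from the 4.49% over the arms. At this distance the regions of the p-arm end were single, as most on the arms were.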

How the data were processed

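The authors mapped reads of the K562 ChIRP libraries to hg19 and deposited MACS peaks, with start, end and a score, in 1 list per SRA and LacZ sample. The submitters' processing notes also name CASAVA 1.8.2 and deepTools. The deposited score is headed −log10 of the p-value but was read as 10 times that value, since its minimum is 40, which MACS writes at its cutoff of 0.0001. The MACS version, the control and the parameters of LacZ list 3 are not given in the sources used here. Starts were read as 0-based and are printed 1-based. Peaks sharing at least 1 bp were merged. Shares were compared by two-sided exact permutation tests, counts by exact Poisson or conditional binomial 95% intervals, and shares of peaks by Wilson intervals, with no read depth known. Chromosome lengths came from GenomeInfoDb 1.38.1 and hg19 bands from circlize 0.4.16 (R 4.3.3). Counts were made in Python 3.11.15 with scipy 1.17.1, numpy 2.4.6 and pandas 2.3.3 and drawn with matplotlib 3.10.9, and counting was tested on simulated peaks. Members, segments and comparisons were chosen with earlier results of these data known. Named regions were the 5 highest mean scores on the arms and the 3 highest in each segment, among regions that all 3 SRA lists held and no LacZ peak overlapped, with every region shared by LacZ lists or by both probe sets. Same-numbered SRA and LacZ lists did not deviate together over bins (correlations 0.0248, -0.00896 and -0.0282), so numbers were not taken to pair samples. Bins of 5 Mb that lay mostly or wholly outside the arms were left out, as were all bins without a peak in any list. Alternatives were other region rules, score filters, edges, bins and each list left out in turn.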

Additional observations from a re-analysis of the deposited data

How the results depend on the processing

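Of 178 alternative values for 19 results, 142 kept their direction or stayed within the limits set for a value without a test, 11 changed direction and 25 moved further. None of the differences that changed direction had reached the smallest possible p as compared in the report. In the duplicated segment the SRA minus LacZ share of -0.87 percentage points became 1.89 with the peaks under the median score of a list left out (the score filter), 1.21 with equal numbers of peaks taken from the lists and 0.76 with the edges moved inwards by 1 Mb. In 7q22 the 2.10 points became -1.64 with equal numbers. In the chromosome ends the 0.43 points ranged from -1.87 to 3.95 with 1 list left out, and became -0.72 with the score filter and -4.91 with equal numbers. In light bands the -1.99 points ranged from -5.07 to 2.47 with 1 list left out and became 4.77 with equal numbers. In the p-arm end the 1.26 points ranged from -0.55 to 3.94 with 1 list left out. The cause was not tested.

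The 336 SRA-binding regions became 177 to 340 with 1 list left out, 111 with all 3 SRA lists required, 653 with any list and 173 with the score filter. Fewer or more lists that must hold a peak set these counts by construction. The median distance of 197400 bp ranged accordingly from 192400 to 358100 bp with 1 list left out, and was 580400, 90770 and 353100 bp under those rules. The density ratios of the duplicated segment, 7q22 and the ends stayed within their intervals under every alternative run. Bins with SRA shares above all LacZ shares made up 3.33% of arm bins and became 0.0% with bins of 10 Mb (12.7% of all bins), 16.1% with bins shifted by 2.5 Mb (15.8% of all bins) and 3.33 to 16.7% with 1 list left out (16.5 to 27.6% of all bins). Bins below all LacZ shares, 6.67%, ranged from 10.0 to 16.7% with 1 list left out (8.77 to 20.8% of all bins). The mean of the SRA median widths, 169 bp, became 188.8 bp, and the width difference between the arms, 27 bp, became 52 bp with the score filter. The share of distinct SRA peaks in at least 2 lists was 31.9 to 36.3% with 1 SRA list left out. With replicate block, the arm share difference stayed at -1.15 percentage points (exact sign-flip test, p = 0.25, the smallest possible), and that of 7q22 at 2.10 (p = 0.5). The duplicated segment's -0.87 went from p = 0.4 (exact permutation test) to 0.25, the smallest possible, with the block, SRA being lower in 3 of 3 pairs. Numbers were not taken to pair samples.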
